A study of Mus musculus with 4 samples.

Results

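Retinoic acid is made inside cells and acts on nuclear receptors, and 7 genes of this system were followed here through single cells of the mouse embryonic pancreas at day 15.5. The genes were Aldh1a1, Aldh1a2 and Aldh1a3 (the retinaldehyde dehydrogenases), Crabp1 and Crabp2 (the cellular retinoic acid binding proteins), and Rarb and Rarg (retinoic acid receptors beta and gamma). They were chosen by name, and all 7 were present among the 27998 gene identifiers of both count tables. The study compared pancreatic cells that lack OGT, the enzyme that attaches O-GlcNAc sugar to nuclear and cytoplasmic proteins, with control cells. The OGT KO library came from PdxCre;OGTflox/flox;CAG GFP embryos sorted on their endogenous GFP, so that Cre under the Pdx promoter drove both the deletion and the label. The control library came from OGTflox/flox embryos, whose labels read WT and whose floxed Ogt was not recombined, sorted by GFP on E-cadherin. Genotype and sorting method therefore cannot be told apart. Each genotype had 1 library (2 sequencing runs that the count tables do not separate), so nothing could be tested. All intervals are 95% intervals and cover counting error only.

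Retinol is first oxidised to retinaldehyde, which the ALDH1A enzymes convert irreversibly to retinoic acid. CRABP proteins hold retinoic acid in the cytoplasm, and RAR receptors, paired with RXR receptors on DNA, switch target genes on when they bind it. In the mouse embryo Aldh1a2 is the main source of retinoic acid in mesoderm, and its product is needed for the dorsal pancreas to form. Rarb is itself a textbook retinoic acid target, through a direct repeat of the receptor-binding motif in its promoter.

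The promoter sequences show where these genes differ in that motif. RefSeq promoter entries (build GRCm38.p6) matched 5 of the 7 genes, Aldh1a3 and Crabp2 being the exceptions. The 250 bases before the start are shown for Rarb, because it carries the repeat, and for Aldh1a2 and Crabp1, because they were the most abundant of the 7 genes in the cells described next. Capitals mark the core hexamer of the receptors, AGGTCA, on either strand. They also mark its common variants, which were searched in the same way: the first variant was GGGTCA, the next variant was AGTTCA, and the last variant was GGTTCA. The Rarb sequence is chr14:16575477-16575726 (minus strand), the Aldh1a2 sequence chr9:71215539-71215788 (plus strand) and the Crabp1 sequence chr9:54764498-54764747 (plus strand). The Rarb entry belongs to a start inside the gene's annotated span (chr14:16430839-16819156), and no other Rarb start was searched.
Rarb: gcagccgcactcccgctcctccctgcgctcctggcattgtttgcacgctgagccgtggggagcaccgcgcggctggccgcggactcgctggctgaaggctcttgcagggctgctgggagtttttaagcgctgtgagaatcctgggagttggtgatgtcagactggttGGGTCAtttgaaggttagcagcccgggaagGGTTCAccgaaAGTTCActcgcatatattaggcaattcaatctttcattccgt
Aldh1a2: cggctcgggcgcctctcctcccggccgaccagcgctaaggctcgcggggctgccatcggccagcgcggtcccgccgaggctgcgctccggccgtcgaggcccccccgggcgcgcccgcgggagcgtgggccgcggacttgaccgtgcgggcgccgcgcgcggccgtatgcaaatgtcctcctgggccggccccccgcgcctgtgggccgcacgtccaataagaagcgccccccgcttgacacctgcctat
Crabp1: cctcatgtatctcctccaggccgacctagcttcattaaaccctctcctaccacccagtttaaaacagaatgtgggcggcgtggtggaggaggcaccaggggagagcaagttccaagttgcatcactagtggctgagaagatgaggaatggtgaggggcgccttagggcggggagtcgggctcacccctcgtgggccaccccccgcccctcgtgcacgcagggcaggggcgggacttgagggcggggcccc
Rarb held 3 of the hexamers, and the pair nearest the start, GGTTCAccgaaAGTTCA, formed a direct repeat with 5 bases between its copies at positions -53 to -37. Such a repeat was found in 32 of 32851 promoter windows of 300 bases (0.0974%), whereas 14358 windows (43.7%) held at least 1 hexamer. Neither the Aldh1a2 nor the Crabp1 sequence held any of these letters. The Rarb repeat was known beforehand and both its hexamers were among those searched, so this share describes the motif and tests nothing about Rarb. Repeats with 1 or 2 bases between the copies were also searched, and the Rarb, Aldh1a2 and Crabp1 windows held none. A match describes letters in a window and not a bound site.

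The OGT KO table held 617 barcodes and 11064540 UMIs (unique transcript counts), and the control table held 941 barcodes and 11973979 UMIs, with no barcode in common. After filtering, 553 OGT KO cells and 921 control cells remained. They were clustered without the 7 genes and the other retinoid genes, and clusters were named from marker genes. Although the labels give pancreatic epithelial cells, 48.1% of OGT KO cells and 11.4% of control cells were epithelium-like (266 and 105 cells). Immune-like cells numbered 77 in the OGT KO library and 701 in the control library. Cluster 4, led by globin genes, was left unnamed, with 3 OGT KO and 107 control cells. Its control cells also carried immune markers: 15 of 15 leukocyte markers reached 50 CPM (UMI counts as a share of the class total, scaled per 1e+06). These summed to 19718 CPM, against 26930 CPM in control immune-like cells. Mesenchyme-like cells numbered 142 in the OGT KO library and 8 in the control library. The 65 mesothelium-like cells, the covering layer of the organ, were all in the OGT KO library, and 0 of 921 control cells allows a share of up to 0.326%. Their markers fitted the name, since 9 of 12 mesothelial markers reached 50 CPM and Upk3b stood at 514 CPM and Wt1 at 362 CPM, although Msln was at 6.73 CPM. The 12 markers summed to 2381 CPM in mesothelium-like cells, against 372 CPM in mesenchyme-like, 413 CPM in epithelium-like and 193 CPM in immune-like cells of the same library.

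The targeted gene was lower in the OGT KO library in epithelium-like cells as a whole. Ogt stood at 37.3 CPM (234 UMIs) in OGT KO epithelium-like cells and at 57.1 CPM (112 UMIs) in control ones, a ratio of 0.653 (0.519 to 0.826). Acinar-like cells did not follow, with 38.2 CPM in the OGT KO library and 37.1 CPM in the control library (ratio 1.03, 0.727 to 1.47). The 3′ tags counted here may lie outside the deleted exons, in which case they do not check the label. OGT KO names the library, and whether Ogt was deleted in its mesothelium-like, mesenchyme-like and immune-like cells was not tested.

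Aldh1a2 marked the mesothelium-like cells. Its level was 227 CPM (236 UMIs, 199 to 258) in these cells, against 18.6 CPM (32 UMIs, 12.7 to 26.2) in mesenchyme-like cells of the same library. It stood at 9.89 CPM (62 UMIs) in epithelium-like and 7.05 CPM (9 UMIs) in immune-like cells of the OGT KO library. The mesothelium-like level was thus 12.2 times the mesenchyme-like level (8.41 to 18.2), or 19.4 times (11.6 to 34.7) without the 5 cells highest in the gene in each class. It was 22.9 times the epithelium-like level (17.3 to 30.8). In the control library, which held no mesothelium-like cells, Aldh1a2 had 1 UMI in epithelium-like cells and none in 701 immune-like cells. Aldh1a2 was among the 10 leading genes of the mesothelium-like cluster, although it was kept out of the genes used for clustering. It lies at chr9:71215789-71296243 on the plus strand (mm10).

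The Aldh1a2 signal was spread over the mesothelium-like population rather than held by a few cells. At least 1 UMI was found in 57 of 65 cells and at least 2 UMIs in 46 cells, and the median cell stood at 220.5 CPM with a highest value of 671.9 CPM. With every cell thinned to 5000 UMIs, 61.5% of mesothelium-like cells kept a UMI (40 of 65, 48.6% to 73.3%), against 8.45% of mesenchyme-like (12 of 142) and 5.64% of epithelium-like cells (15 of 266). Immune-like cells of the same library, taken as a class that should lack the gene, gave 5.26% (4 of 76). Without thinning the shares were 87.7% in mesothelium-like, 14.8% in mesenchyme-like, 19.9% in epithelium-like and 11.7% in immune-like cells, whose median depths were 14634, 11357.5, 20909 and 14953 UMIs. In the 142 mesenchyme-like cells, 5 cells held 50% of the Aldh1a2 UMIs. The epithelium-like level was 1.40 times the immune-like level (0.693 to 3.21), so the difference was not detectable at this depth, and no epithelial expression is read from it. Cluster 7, 89 epithelium-like cells without a finer name, had 14.0 CPM of Aldh1a2 (25 UMIs, 9.08 to 20.7).

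**Figure D1:**
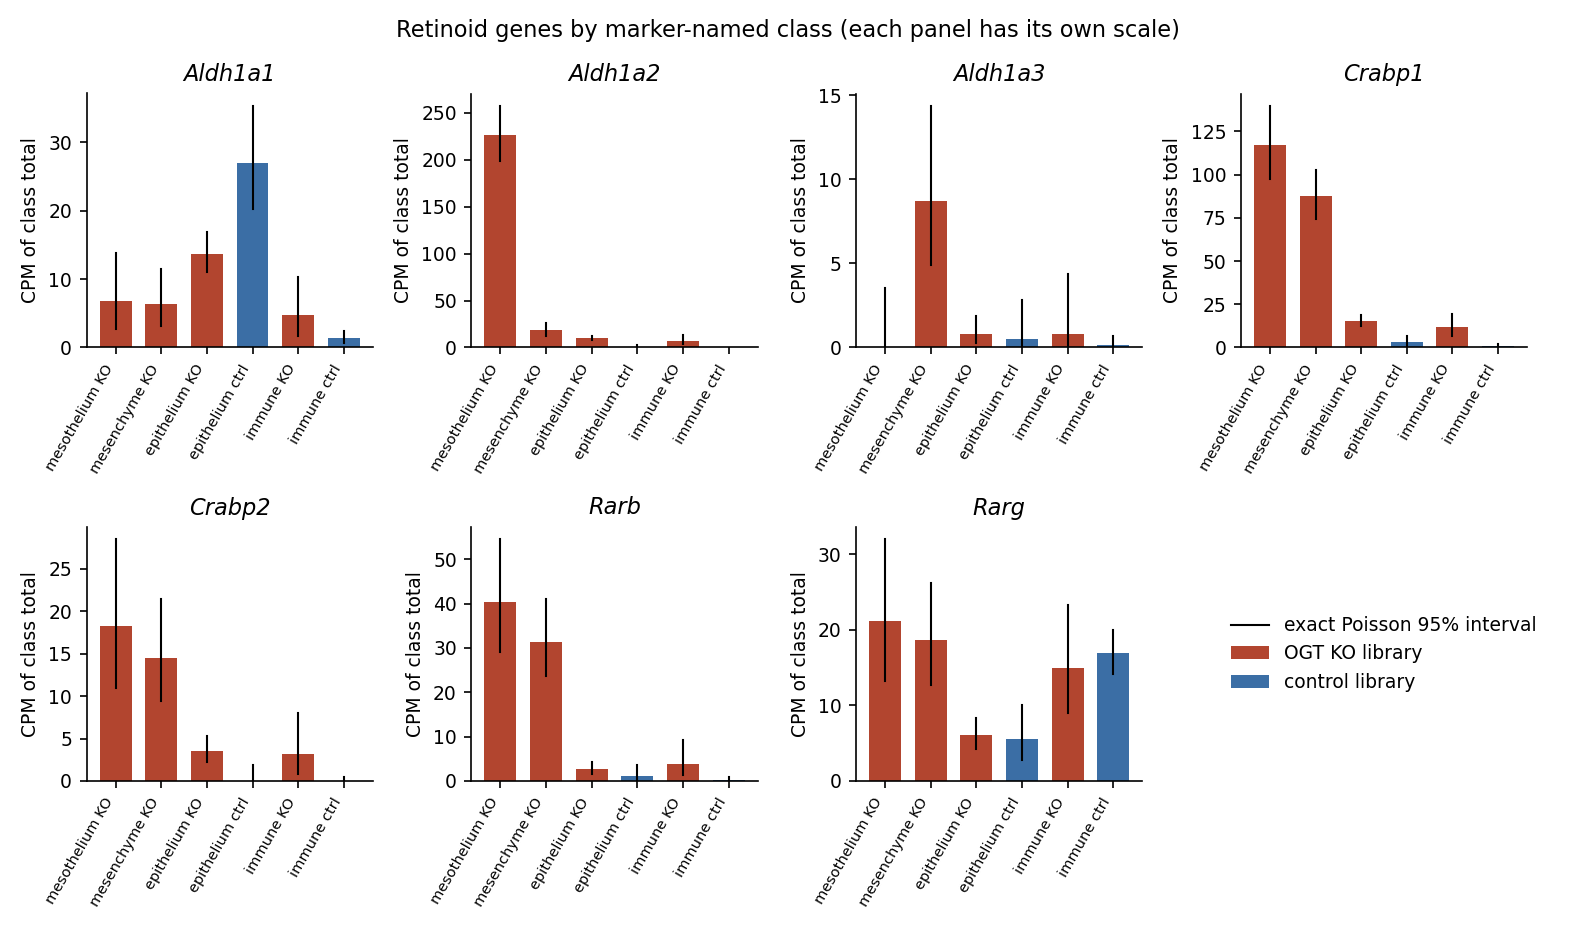
Level of each of the 7 retinoid genes (CPM of the class total, each panel with its own scale) in the 4 marker-named classes, with OGT KO bars in red, control bars in blue and lines for exact Poisson intervals. Aldh1a2 stands at 227 CPM in mesothelium-like cells, Crabp1, Crabp2 and Rarb are highest in mesothelium-like and mesenchyme-like cells, and Aldh1a1 is highest in control epithelium-like cells; control mesenchyme (8 cells) is not drawn.

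Aldh1a3 had the opposite arrangement within the stroma at a much lower level. This enzyme carries out the same reaction as Aldh1a2, and the gene lies at chr7:66390890-66427517 on the minus strand. It had 0 UMIs in mesothelium-like cells and 15 UMIs in mesenchyme-like cells (8.71 CPM, 4.88 to 14.4), which puts the upper limit of the exact interval of the mesothelium-like to mesenchyme-like ratio at 0.461. Epithelium-like cells of the OGT KO library had 5 UMIs (0.798 CPM), and the mesenchyme-like level was 10.9 times theirs (3.77 to 38.4). Few cells carried it: 8 of 142 mesenchyme-like cells had a UMI, 1 cell had 7 UMIs, and 5 cells held 80% of the total. Cluster 2, the largest mesenchyme-like cluster with 106 cells, held 14 of the 15 UMIs.

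Both binding protein genes were shared by mesothelium-like and mesenchyme-like cells. Crabp1 (chr9:54764748-54773110, plus strand) stood at 117 CPM (122 UMIs, 97.3 to 140) in mesothelium-like and at 87.7 CPM (151 UMIs, 74.3 to 103) in mesenchyme-like cells. In the other classes of the OGT KO library it stood at 15.5 CPM (97 UMIs) in epithelium-like and 11.8 CPM (15 UMIs) in immune-like cells. The ratio of mesothelium-like to mesenchyme-like was 1.34 (1.04 to 1.71) but 1.05 (0.760 to 1.43) once the 5 cells highest in Crabp1 were left out of each class, so the order of these neighbours rests on few cells. Against epithelium-like cells Crabp1 was 7.58 times higher in mesothelium-like (5.75 to 9.99) and 5.67 times higher in mesenchyme-like cells (4.36 to 7.39).

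Crabp1 was uneven from cell to cell in the mesothelium-like class. A UMI was found in 30 of 65 cells, the median cell was at 0, the highest reached 937 CPM, and 5 cells held 45.1% of the UMIs. In mesenchyme-like cells a UMI was found in 71 of 142, and the median cell stood at 25.6 CPM. Thinned to 5000 UMIs, the shares were 29.2% (19 of 65) in mesothelium-like and 29.6% (42 of 142) in mesenchyme-like cells, against 7.14% in epithelium-like and 5.26% in immune-like cells. Crabp2 (chr3:87948666-87953376, plus strand) followed the same order at a lower level. It stood at 18.3 CPM (19 UMIs, 11 to 28.5) in mesothelium-like, 14.5 CPM (25 UMIs, 9.4 to 21.4) in mesenchyme-like, 3.51 CPM (22 UMIs) in epithelium-like and 3.14 CPM (4 UMIs) in immune-like cells of the OGT KO library. The mesothelium-like and mesenchyme-like levels of Crabp2 did not differ beyond counting error (ratio 1.26, 0.654 to 2.38). Control epithelium-like and immune-like cells held no Crabp2 UMI.

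**Figure D2:**
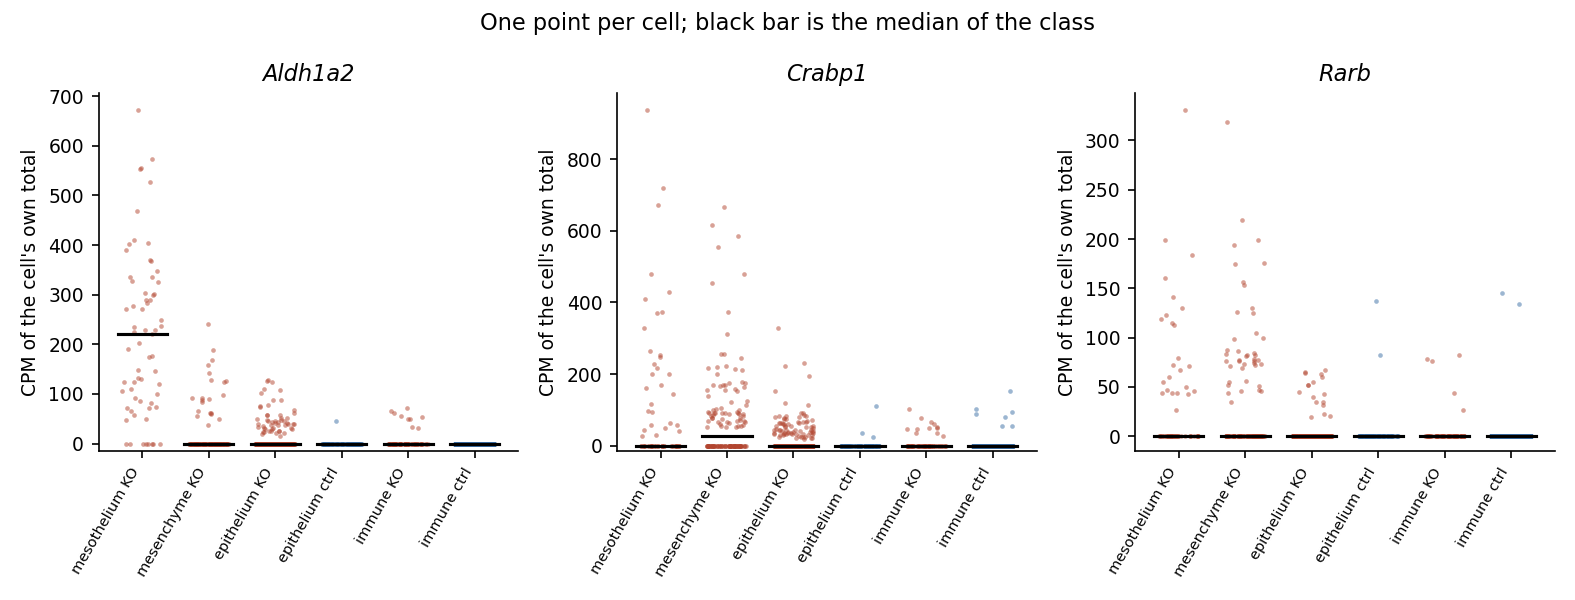
Each point is 1 cell, placed by its class and library on the x axis and by the CPM of its own total on the y axis, for Aldh1a2, Crabp1 and Rarb; black bars are class medians. The Aldh1a2 median is 220.5 CPM in mesothelium-like cells and 0 in every other class drawn, whereas Crabp1 and Rarb points spread over both mesothelium-like and mesenchyme-like cells.

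The receptor gene Rarb followed the binding proteins. It stood at 40.4 CPM (42 UMIs, 29.1 to 54.5) in mesothelium-like and 31.4 CPM (54 UMIs, 23.6 to 40.9) in mesenchyme-like cells. Epithelium-like cells of the OGT KO library had 2.71 CPM (17 UMIs) and immune-like cells 3.92 CPM (5 UMIs). The mesothelium-like level was 14.9 times (8.29 to 27.9) and the mesenchyme-like level 11.6 times (6.60 to 21.3) the epithelium-like level, while the stromal classes did not differ from each other beyond counting error (1.29, 0.838 to 1.96). A UMI was found in 24 of 65 mesothelium-like (36.9%) and 42 of 142 mesenchyme-like cells (29.6%), and after thinning in 10.8% and 18.3%, against 1.13% of epithelium-like and 3.95% of immune-like cells. These shares run against the CPM order of the stromal classes, and no order is read from them. Rarb (chr14:16430839-16819156, minus strand) is the gene whose promoter above carries the direct repeat. Its 3′ end shares 4624 bases with Top2b, a DNA topoisomerase gene on the opposite strand, and the strand setting of the counting is not given in the sources used here. In the OGT KO library Top2b stood at 39.4 CPM in mesothelium-like, 43.6 CPM in mesenchyme-like, 38.4 CPM in epithelium-like and 47 CPM in immune-like cells. Within the epithelium it ran from 25.6 CPM in acinar-like cells to 52.2 CPM in the epithelium-like cells without a finer name. The part of Top2b reads in the Rarb counts was not tested.

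Rarg was found in both stroma and immune cells. It stood at 21.1 CPM (22 UMIs, 13.2 to 32) in mesothelium-like, 18.6 CPM (32 UMIs, 12.7 to 26.2) in mesenchyme-like, 6.06 CPM (38 UMIs, 4.29 to 8.32) in epithelium-like and 14.9 CPM (19 UMIs, 8.97 to 23.3) in immune-like cells of the OGT KO library. In the control library it stood at 5.61 CPM (11 UMIs) in epithelium-like and 16.9 CPM (137 UMIs, 14.2 to 20) in immune-like cells. Epithelium-like cells as a whole were thus lower than immune-like cells in both libraries, with an epithelium-like to immune-like ratio of 0.407 (0.229 to 0.747) in the OGT KO library and 0.332 (0.162 to 0.613) in the control library. In the OGT KO library acinar-like cells had 3.75 CPM, endocrine-like 2.81 CPM, cluster 7 8.98 CPM and trunk/ductal-like 10.7 CPM. As a mean of the cells' own CPM, control acinar-like cells had 3.52 (3 UMIs) and trunk/ductal-like cells 12.3 (6 UMIs). Control endocrine-like cells had 14.0 (2 UMIs) and control immune-like cells 17.2 by the same measure. The OGT KO to control ratio was 0.881 (0.515 to 1.43) in immune-like and 1.08 (0.541 to 2.34) in epithelium-like cells, with both intervals holding 1. Immune-like cells of the OGT KO and control libraries lay mostly in different clusters, so the immune-like ratio compares unlike mixtures of cells. Rarg lies at chr15:102234938-102257517 on the minus strand. In control immune-like cells the other 6 genes stood at 1.36 CPM (Aldh1a1) or less. The unnamed cluster 4 of the control library had 3.60 CPM of Rarg (6 UMIs).

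Within the control immune-like cells Rarg differed between clusters. It was highest in cluster 8, a neutrophil-like group led by S100a8 and S100a9 (38.5 CPM, 25 UMIs), followed by cluster 0, led by the monocyte receptor gene Ccr2 (26.8 CPM, 53 UMIs), and cluster 3 (18.8 CPM, 30 UMIs). Cluster 12 had 9.36 CPM (6 UMIs), cluster 1 had 8.21 CPM (14 UMIs), cluster 5 had 5.75 CPM (6 UMIs) and cluster 14 had 2.5 CPM (1 UMI). In the OGT KO library, whose immune-like cells lay mostly in clusters 8, 15 and 17, Rarg had 5 UMIs in cluster 8 (14.1 CPM), 6 UMIs in cluster 15 (12.2 CPM) and 4 UMIs in cluster 17 (21.4 CPM, 5.83 to 54.8). Cluster 8 thus had a lower level in the OGT KO than in the control library, a difference that was not tested.

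**Figure D3:**
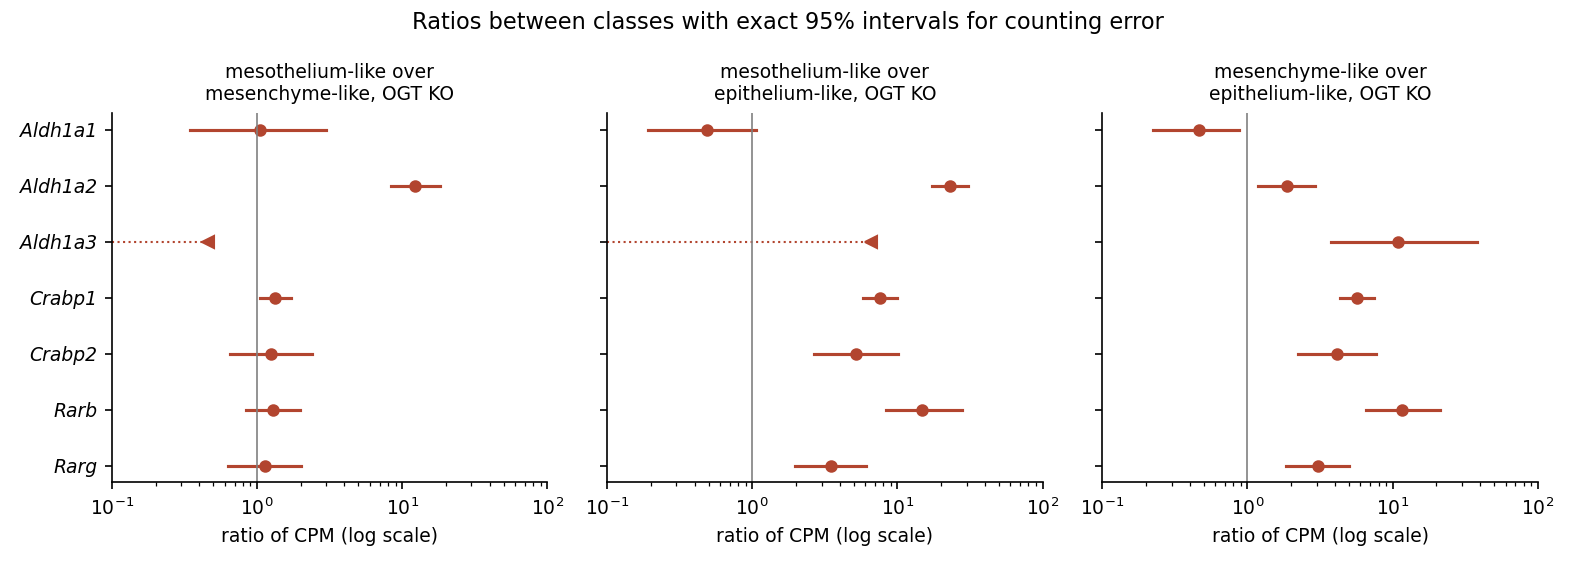
Ratio of CPM between classes of the OGT KO library (log scale) for each gene, with points for the ratio, lines for exact intervals, a triangle for an upper bound where the numerator is 0, and a vertical line at 1. Aldh1a2 alone lies far above 1 in the mesothelium-like over mesenchyme-like panel (12.2), while 5 genes lie above 1 with their intervals in both comparisons with epithelium-like cells, namely Crabp1, Crabp2, Rarb, Rarg and Aldh1a2.

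Counted over the 7 genes, the differences lay between stroma and epithelium. A gene was counted where both classes together held at least 20 UMIs and the ratio was at least 2-fold. Between mesothelium-like and mesenchyme-like cells 5 of 7 genes could be counted, and 1 was higher and 0 lower in mesothelium-like cells, where 6.75% of 9715 genes were higher and 8.24% lower. Between mesothelium-like and epithelium-like cells 6 could be counted, and 5 were higher and 1 lower, against a background of 13.4% higher and 13.3% lower. Between mesenchyme-like and epithelium-like cells all 7 could be counted, and 5 were higher and 1 lower, against 14.9% higher and 14.2% lower. The single lower gene in both comparisons was Aldh1a1, just past the limit on few stromal UMIs. It stood at 6.73 CPM (7 UMIs) in mesothelium-like, 6.39 CPM (11 UMIs) in mesenchyme-like and 13.7 CPM (86 UMIs) in epithelium-like cells. The epithelium-like level was 204% of the mesothelium-like and 215% of the mesenchyme-like level. Aldh1a2 in mesenchyme-like over epithelium-like cells fell just inside the limit at 1.88 (1.19 to 2.92), and 5 cells held 50% of its mesenchyme-like UMIs.

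Aldh1a1 was the enzyme gene highest in epithelium-like cells, with the acinar-like class highest in the control library. It lies at chr19:20492715-20643465 on the plus strand and partly overlaps the antisense transcript C730002L08Rik. Acinar-like cells had 16.7 CPM (49 UMIs, 12.4 to 22.1) in the OGT KO library and 37.9 CPM (49 UMIs, 28 to 50.1) in the control library, a ratio of 0.441 (0.291 to 0.669). Trunk/ductal-like cells had 7.12 CPM (6 UMIs) in the OGT KO library and 8.06 CPM (4 UMIs) in the control library. Endocrine-like cells had 6 UMIs in the OGT KO library and none in the control library. Cluster 7, 89 epithelium-like cells of the OGT KO library that no finer marker list named, had 14.0 CPM of Aldh1a1 (25 UMIs, 9.08 to 20.7), which overlaps the acinar-like interval. Control acinar-like cells stood 6.32 times above the other control epithelium-like cells (2.32 to 24.1), whereas the same ratio in the OGT KO library was 1.51 with an interval that held 1 (0.963 to 2.37). In immune-like cells Aldh1a1 was at 4.70 CPM (6 UMIs) in the OGT KO library and 1.36 CPM (11 UMIs) in the control library, below the acinar-like levels of the same libraries.

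The acinar difference in Aldh1a1 leaned on a few cells. A UMI was found in 33 of 93 OGT KO and 18 of 50 control acinar-like cells (35.5% and 36%), and after thinning in 7.53% (7 of 93) and 10.4% (5 of 48), against 0 of 76 OGT KO immune-like cells (up to 3.95%) and 1.27% of control immune-like cells. The 5 highest cells held 30.6% of Aldh1a1 UMIs in the OGT KO acinar-like class and 53.1% in the control class. Without the 5 highest cells of each class the ratio was 0.570 (0.326 to 1.01), an interval that reaches 1. OGT KO acinar-like cells lay in cluster 6 and control ones in cluster 13, with median depths of 31391 and 23317.5 UMIs. In all epithelium-like cells Aldh1a1 stood at 13.7 CPM (86 UMIs) in the OGT KO library and 27 CPM (53 UMIs) in the control library, a ratio of 0.507 (0.356 to 0.729), which was 0.740 (0.468 to 1.20) without the 5 highest cells of each library and 0.839 as a mean of the cells' own CPM.

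**Figure D4:**
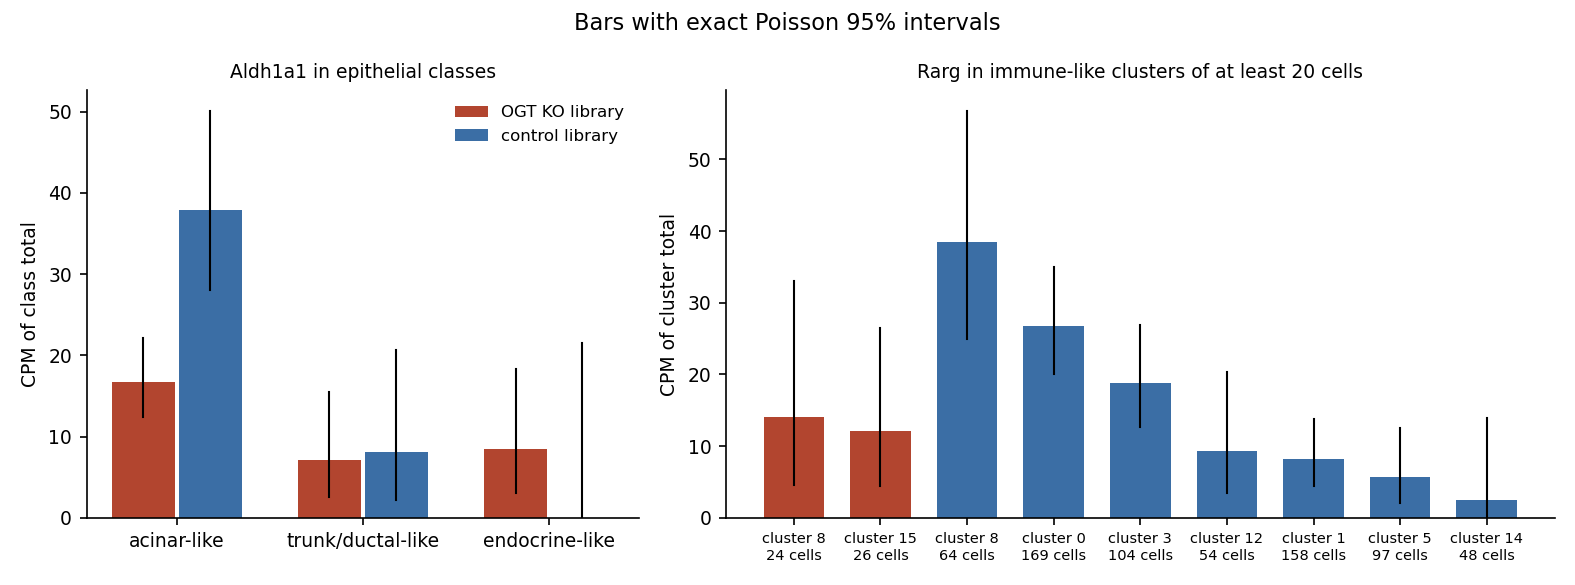
Left, Aldh1a1 (CPM of the class total) in acinar-like, trunk/ductal-like and endocrine-like cells, OGT KO bars left of control bars; right, Rarg (CPM of the cluster total) in immune-like clusters of at least 20 cells, with exact Poisson intervals as lines. Aldh1a1 in acinar-like cells stands at 16.7 CPM in the OGT KO and 37.9 CPM in the control library, and Rarg in the control library runs from 38.5 CPM in cluster 8 to 2.5 CPM in cluster 14.

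Aldh1a2, Crabp1 and Crabp2 were higher in OGT KO than in control epithelium-like cells, and higher in OGT KO than in control immune-like cells as well. Of the 5 genes that could be counted between OGT KO and control epithelium-like cells, 3 were at least 2-fold higher (Aldh1a2, Crabp1 and Crabp2) and 0 lower, against 8.9% of genes higher and 4.99% lower. In acinar-like cells 3 could be counted, of which 2 were higher (Aldh1a2 and Crabp1) and 1 lower (Aldh1a1), against 6.59% higher and 5.82% lower. Crabp1 stood at 15.5 CPM in OGT KO and 3.06 CPM in control epithelium-like cells (ratio 5.06, 2.24 to 14.1). In immune-like cells its ratio between the libraries was 13.6 (5.23 to 39.5). Aldh1a2 was 19.4 times higher in OGT KO than in control epithelium-like cells (3.35 to 778, on 1 control UMI) and in immune-like cells, with 9 UMIs against 0, the lower limit of the ratio was 12.5. Crabp2 had no control UMI in either class, and the lower limit of its ratio was 1.71 in epithelium-like cells (22 UMIs in the OGT KO library), which is under 2-fold, and 4.19 in immune-like cells (4 UMIs). Within the OGT KO library the epithelium-like to immune-like ratio was 1.32 for Crabp1 (0.760 to 2.44) and 1.12 for Crabp2 (0.380 to 4.47), and both intervals held 1. No epithelial expression is read from these levels, as for Aldh1a2.

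Mesothelial markers were set beside Aldh1a2 across the OGT KO classes. Aldh1a2 in epithelium-like cells was at 4.36% and in immune-like cells at 3.11% of its mesothelium-like level. For Upk3b these values were 2.92% and 2.44%, and for Wt1 2.73% and 2.60%. Lrrn4 was at 1.33% and 1.86%. Nkain4 was at 35.0% and 20.04%, being itself higher in mesenchyme-like than in mesothelium-like cells, and Msln was at 19.0% and 0. The 19 mesenchymal markers summed to 1180 CPM in OGT KO and 306 CPM in control epithelium-like cells, with 1 and 4 of them at 0. The 15 leukocyte markers summed to 521 CPM in OGT KO and 3650 CPM in control epithelium-like cells, with none at 0. The part of free RNA in these ratios was not tested.

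Mesenchyme-like cells were not uniform. Cluster 16, 22 cells with Sfrp2 and Acta2 among their leading genes, had Crabp1 at 122 CPM (38 UMIs, 86.7 to 168), Rarb at 51.6 CPM (16 UMIs, 29.5 to 83.8) and Crabp2 at 25.8 CPM (8 UMIs). Cluster 2, with 106 cells, had Crabp1 at 85.9 CPM (107 UMIs, 70.4 to 104), Rarb at 29.7 CPM (37 UMIs, 20.9 to 41) and Crabp2 at 13.7 CPM (17 UMIs). Cluster 18, 14 cells with Nkx2-5 and Tlx1 among theirs, had Crabp1 at 36.1 CPM (6 UMIs, 13.3 to 78.6), 1 UMI of Rarb and none of Crabp2. The Crabp1 interval of cluster 18 lay under that of cluster 16, and the interval of cluster 2 overlapped both. The 8 control mesenchyme-like cells held 3 UMIs of Crabp1 (38.9 CPM) and 2 of Rarb (25.9 CPM).

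Pairs of the 7 genes in the same cell were set against the product of their separate shares, and 3 pairs are given that were chosen after their values were seen. At 5000 UMIs per cell, Aldh1a2 and Crabp1 were both present in 12 of 65 mesothelium-like cells, where the product of their shares gives 11.7 cells. Crabp1 and Rarb were both present in 14 of 142 mesenchyme-like cells, where the product gives 7.69 cells. Aldh1a2 and Rarb were both present in 1 of 65 mesothelium-like cells, where the product gives 4.31. Cells with at least 1 of the 7 genes made up 83.1% of mesothelium-like (54 of 65), 53.5% of mesenchyme-like (76 of 142), 21.8% of epithelium-like and 21.1% of immune-like cells of the OGT KO library. In the control library these shares were 13.3% of epithelium-like and 9.05% of immune-like cells.

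Rdh10 and Dhrs3, which act on the substrate of the ALDH1A enzymes, were higher in mesothelium-like and mesenchyme-like than in epithelium-like cells of the OGT KO library. Rdh10, which oxidises retinol to retinaldehyde, stood at 106 CPM (110 UMIs) in mesothelium-like, 79.6 CPM in mesenchyme-like, 13.2 CPM in epithelium-like and 10.2 CPM in immune-like cells of the OGT KO library. The mesothelium-like level of Rdh10 was 7.98 times the epithelium-like level (5.95 to 10.7). Dhrs3, which reduces retinaldehyde back to retinol, stood at 114 CPM in mesothelium-like and 45.3 CPM in mesenchyme-like cells, a ratio of 2.52 (1.88 to 3.40), and at 14.8 CPM in epithelium-like cells. Within the mesenchyme-like class Dhrs3 was at 161 CPM (50 UMIs) in cluster 16 and 21.7 CPM (27 UMIs) in cluster 2, with 1 UMI in cluster 18. Rdh10 had another order, at 138 CPM (23 UMIs) in cluster 18, 90.3 CPM (28 UMIs) in cluster 16 and 69.1 CPM (86 UMIs) in cluster 2. Of 8 countable genes of retinol and retinal oxidation and reduction, 5 were at least 2-fold higher and 2 lower in mesothelium-like than in epithelium-like cells (13.4% and 13.3% of all genes), and their median log2 ratio was 0.68 beside 0.01 over all genes. Dhrs3 is not particular to the stroma, as control immune-like cells had 101 CPM (820 UMIs).

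Uptake and carrier genes did not follow Aldh1a2. Of 6 countable carrier genes 0 were higher and 3 lower in mesothelium-like than in epithelium-like cells (Rbp2, Rbp4 and Ttr), against 13.4% of all genes higher and 13.3% lower, with a median log2 ratio of -0.80. Rbp4, the plasma retinol carrier, stood at 73 CPM in mesothelium-like and 458 CPM in epithelium-like cells. Stra6, the cell-surface receptor for that carrier, was found mainly in mesenchyme-like cells, at 16.3 CPM (28 UMIs), against 2.88 CPM (3 UMIs) in mesothelium-like and 0.957 CPM (6 UMIs) in epithelium-like cells. None of the 3 degrading enzymes of the CYP26 family reached 20 UMIs. Cyp26b1 had 11 UMIs in mesenchyme-like cells (6.39 CPM), and Cyp26a1 and Cyp26c1 had none in these classes.

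Other receptors and cofactors were nearly even, while most listed target genes were, like Rarb, higher in stromal than in epithelium-like cells. Whether these target genes responded to retinoic acid here was not tested. Of 10 countable receptors and cofactors, 0 were higher and 2 lower in mesothelium-like than in epithelium-like cells, where 13.4% of all genes were higher and 13.3% lower, and 0 were higher or lower in mesenchyme-like than in epithelium-like cells (14.9% and 14.2% of all genes). Rxrb, a partner of the RAR receptors, stood at 61.5 CPM in mesothelium-like, 41.2 CPM in mesenchyme-like and 42 CPM in epithelium-like cells. Of 12 countable target genes, 11 were higher and 0 lower in mesothelium-like than in epithelium-like cells (13.4% and 13.3% of all genes), with a median log2 ratio of 1.74. Of 11 countable target genes, 9 were higher and 1 lower in mesenchyme-like than in epithelium-like cells (14.9% and 14.2% of all genes), with a median log2 ratio of 2.07 beside 0.02 over all genes. Hoxa5, a homeobox patterning gene, stood at 107 CPM in mesothelium-like, 102 CPM in mesenchyme-like and 6.54 CPM in epithelium-like cells.

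Some targets set mesothelium-like cells apart from mesenchyme-like cells as Aldh1a2 did. Tgm2, a transglutaminase, stood at 224 CPM in mesothelium-like and 33.7 CPM in mesenchyme-like cells (ratio 6.64, 4.96 to 9.02). Nr2f1, an orphan nuclear receptor, was 3.69 times higher (1.86 to 7.73). Rarres1 had 20 UMIs in mesothelium-like and 2 UMIs in mesenchyme-like cells. Hoxa2 and Hoxb5 lay the other way, at ratios of 0.276 (0.095 to 0.661) and 0.467 (0.232 to 0.880). Of 14 countable targets, 3 were higher and 2 lower in mesothelium-like cells, against 6.75% and 8.24% of all genes, with a median log2 ratio of -0.02, equal to that of all genes at 2 decimals.

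**Figure D5:**
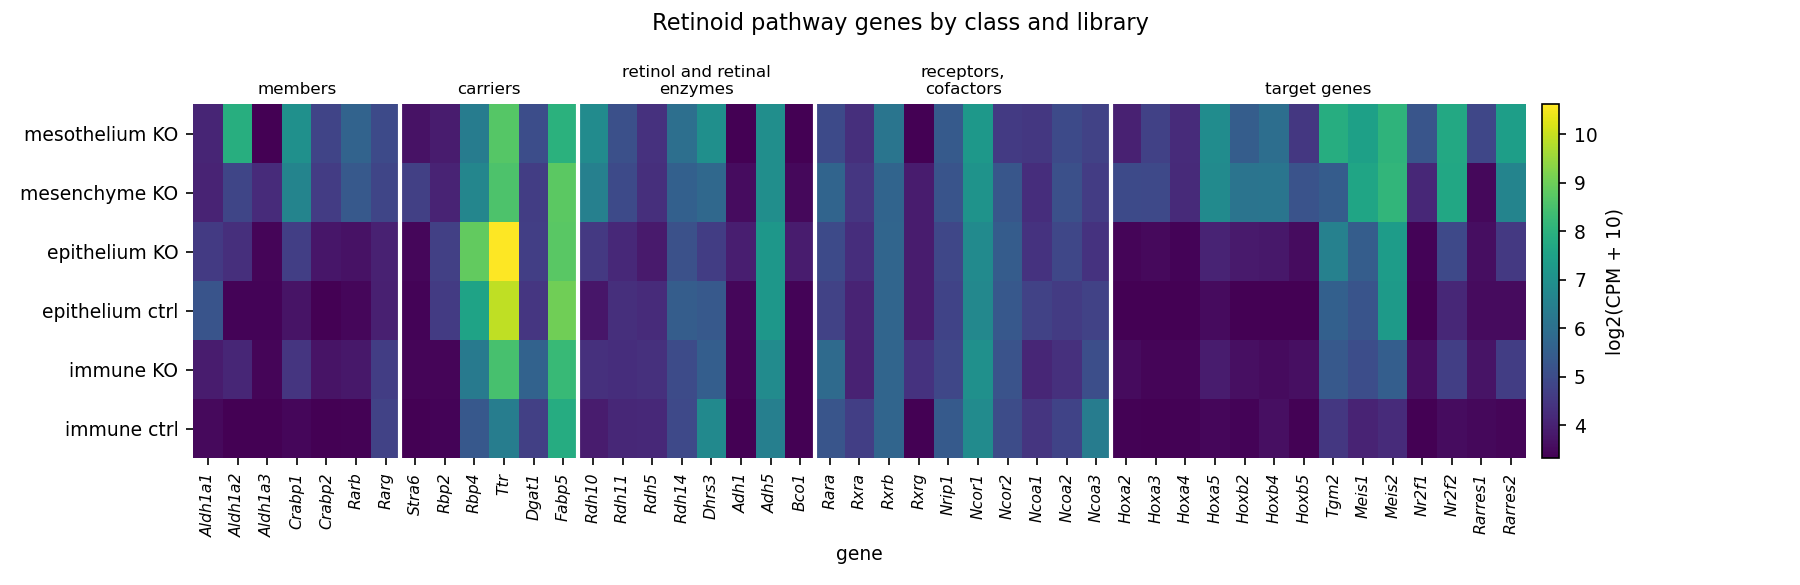
Levels of 45 of the retinoid genes with at least 20 UMIs in the OGT KO library, as log2(CPM + 10) in colour, with 1 column per gene grouped by role and 1 line of cells per class and library. The stromal classes are brightest for Aldh1a2 (mesothelium-like), Crabp1, Rdh10 and the target genes Hoxa5 and Nr2f2, whereas Rbp4 and Ttr are brightest in OGT KO epithelium-like cells.

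The genes with the most similar patterns were sought over 20 sums of cells by cluster and library, among 10403 genes, by Pearson's r of log2(CPM + 10). These sums share library and depth, so the values describe likeness only. Aldh1a2 was most like Cav1 (0.97), Upk3b (0.96) and Tmem151a (0.95). Crabp1 was most like Cxcl13, Osr1 and Dcn (each 0.98), and Crabp2 most like Kcnj8 (0.99), Ccn4 and Plat (each 0.98). Rarb was most like Cpz, Mmp16 and Efna5 (each 0.97), and Rarg had no gene above 0.86 (Flna). Tmed6 and Asns were among the 3 genes most like Aldh1a1 (each 0.93). Aldh1a3 had too few UMIs to be ranked.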

How the data were processed

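UMI counts per gene and cell were deposited by the authors as 1 table per genotype. Per the submitters' processing notes, Cell Ranger 2.0.0, mm10, Seurat 2.0 and DESeq2 1.14.1 were used. For chemistry, strand setting, cell calling and embryos per pool, the information is not given in the sources used here. Columns could be mapped in full (0 left out). Symbols and positions came from GENCODE M21 (GRCm38, the build of mm10). The 353 identifiers without a symbol held 0.0315% of OGT KO and 0.0274% of control UMIs and stayed in the totals.

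Barcodes entered with 500 genes or more and up to 10% mitochondrial UMIs, and 8 OGT KO and 4 control doublets marked by Scrublet were removed. Cells were clustered with scanpy 1.11.5 and leidenalg 0.10.2 (2000 variable genes, 30 components, 15 neighbours, resolution 1) without the 7 genes and 52 further listed retinoid genes. The 19 clusters were named from marker lists (at least 3 markers at 50 CPM and 0.25 of the highest level). A cluster stayed unnamed where its 10 leading genes held more markers of another family than of its own. Levels were summed UMIs over the class total. Poisson, conditional ratio and Clopper-Pearson intervals came from scipy 1.17.1. Shares were taken after thinning to 5000 UMIs per cell, which left out 1 OGT KO and 81 control cells. Gene lists were counted at 2-fold with at least 20 UMIs, a gene with no UMI on 1 side counting as past the limit, and medians used 10 CPM added to both sides. Where a class held no UMI, the limit of the exact conditional interval is given, and a share of 0 is given with the share that 3 cells would make. Scaling by edgeR 4.0.16 (TMM) and by DESeq2 1.42.0, in R 4.3.3, served as alternatives. The conditional ratio interval was checked on simulated counts with set ratios, and the other steps were not simulated. Paralogs shared at most 26 consecutive bases (Aldh1a2 and Aldh1a3).

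All 7 genes were named whatever their value, listed genes with at least 20 UMIs could be named, and the 3 most similar genes were named for each gene with at least 50 UMIs. A few genes that these rules name are not reported here. Genes, lists and the rule for naming clusters were chosen with earlier results of these data known.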

Additional observations from a re-analysis of the deposited data

How the results depend on the processing

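No paired analysis was possible because each genotype had 1 library and its sequencing runs were summed in the count table. No called ratio changed its direction under any setting that gave a value. Leaving out the 5 cells highest in the gene moved Aldh1a2 in mesothelium-like over mesenchyme-like cells to 19.4 (11.6 to 34.7), against 12.2 with all cells. The share of mesothelium-like cells with Aldh1a2 was 61.5% at 5000 UMIs, 41.5% at 2500 UMIs, 87.7% without thinning and 24.6% where at least 2 UMIs were asked for. Over all settings run Aldh1a2 in mesothelium-like over epithelium-like cells ranged from 21.2 to 27.2, Crabp1 in mesenchyme-like over epithelium-like cells from 4.55 to 6.34, Rarb in the same comparison from 10.1 to 13.8, and Aldh1a1 in OGT KO over control acinar-like cells from 0.414 to 0.655. With each library clustered alone the interval of Crabp1 in mesothelium-like over mesenchyme-like cells held 1 (1.27, 0.990 to 1.63).

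Of shares 90 moved and 582 did not, and of list counts 55 moved and 715 did not. Asking for 50 UMIs gave 3 genes of the 7 higher in mesenchyme-like than in epithelium-like cells instead of 5. It gave 7 targets higher in mesothelium-like than in epithelium-like cells instead of 11. It gave 3 targets higher in OGT KO than in control epithelium-like cells instead of 6. Those 6 were out of 8 countable targets, with 0 lower, where 8.9% of all genes were higher. In immune-like cells 5 of 6 countable targets were also higher in the OGT KO library and 0 lower. There 1225 of 10953 genes were higher. The target difference was thus not particular to epithelium-like cells. Shares of all genes at 50 UMIs are not given here. A 1.5-fold limit added Aldh1a1 as 1 gene lower in OGT KO epithelium-like cells instead of 0. Of all ratios 15 moved beyond their limit and 1248 did not. Depth leaves Aldh1a3 with 15 UMIs in mesenchyme-like cells, so its ratios are wide. Likeness with 1 CPM added in place of 10 named other genes for Aldh1a1 (Ppan first) and Rarb (Rcn2 first), while Upk3b, Osr1 and Kcnj8 were named for Aldh1a2, Crabp1 and Crabp2 under both.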

Other observations

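OGT KO epithelium-like cells differed from control ones in retinoid genes outside the 7. Rbp4 stood at 458 CPM in OGT KO and 178 CPM in control cells (ratio 2.57, 2.30 to 2.88). Rdh10 stood at 13.2 CPM (83 UMIs) in OGT KO and 3.57 CPM (7 UMIs) in control cells, and OGT KO immune-like cells had 10.2 CPM. Dhrs3 went the other way, at 14.8 CPM in OGT KO and 31.1 CPM in control cells (ratio 0.477, 0.342 to 0.670), and control immune-like cells had 101 CPM. Of 5 countable carrier genes, 4 were at least 2-fold higher and 0 lower in OGT KO than in control immune-like cells. There 1225 of 10953 genes were higher and 966 lower. The 89 cells of cluster 7 lay only in the OGT KO library, so the epithelium-like classes differed in make-up. The part of other cells' RNA in these values was not tested.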
